A study of Mus musculus with 4 samples.

Results

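Translation initiation factors are the proteins that bring the ribosome, the initiator tRNA and an mRNA together at a start codon. Their genes were taken here as all symbols from Eif1 to Eif6 that carry a mouse Ensembl gene ID in the deposited table, without the eIF2 alpha kinases (Eif2ak), the sex-linked eIF2 gamma genes Eif2s3x and Eif2s3y, and pseudogenes. The rule found 50 genes among 54446 with such an ID, and measured values played no part in it. It kept Eif2c5, an Argonaute-type name that codes for no initiation factor. It left out 9 pseudogene copies.

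The samples were epithelial cells derived from the tongue of C57BL/6 mice and grown in RPMI-1640 with 10% serum. Libraries 1 and 2 were controls of wildtype genotype, and libraries 3 and 4 were labelled as lacking Otub2, which codes for a deubiquitinase, in the whole animal. No age, sex, allele or agent other than these is given, and the labels leave unsaid if the 2 libraries of a group stem from different animals. The count columns of libraries 3 and 4 are headed OE, while the titles with the same numbers say KO. The titles were followed, and the groups are called control and labelled Otub2 knockout. Otub2 itself was at 27.5 and 26.9 CPM (counts scaled to library size) in controls 1 and 2 and at 19.0 and 24.0 CPM in libraries 3 and 4, with a log2 fold change of -0.34 and an adjusted p of 0.485 (edgeR). Where the deletion lies is not given in the sources used here, so the remaining transcript does not check the label.

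Each library held between 11548186 and 22719550 counts in named genes. The 10 most abundant genes took 12.4% and 12.0% of the gene counts in the controls, 40.0% in library 3 and 8.12% in library 4. Summed keratinocyte markers took 7.53% and 6.82% in the controls, 1.99% in library 3 and 4.80% in library 4, and none of the 12 was at 0 in any library. In library 3, 12 salivary secretory markers took 25.4% and 11 cardiomyocyte markers 1.30%, against at most 0.00237% and 0.00726% in the other libraries. Most of the salivary sum was Mucl2, with 5462635 counts in library 3. Pip was at 0, 0, 20900 and 0.629 CPM in libraries 1 to 4. Lpo, Bhlha15 and Aqp5 were at 582, 274 and 148 CPM in library 3 and at most 1.40 CPM in the others. Dcpp1, Dcpp2, Dcpp3 and Smr3a were at 0 in library 3, with at most 8 counts in any library. Muc19 was at 3.57, 2.34, 3.70 and 1.55 CPM in libraries 1 to 4. No cardiomyocyte marker was at 0. Of 10 fibroblast markers, 7 were above both controls in libraries 3 and 4, as were 26.9% of all genes tested and 44.5% of those with a mean of at least 10 CPM. The part of these differences in the results on initiation factors was not tested, and in such bulk samples fewer cells of a type and less RNA per cell cannot be told apart.

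Initiation runs through a set of complexes. eIF2 carries the initiator tRNA to the small ribosomal subunit and is recharged with GTP by eIF2B, while eIF1, eIF1A and eIF3 hold the subunit open for scanning. eIF4F, built from the cap-binding protein eIF4E, the scaffold eIF4G and the helicase eIF4A, loads the mRNA, and eIF4E-binding proteins block that step until mTORC1 phosphorylates them. eIF5 and eIF5B complete subunit joining, eIF6 keeps free large subunits apart and eIF5A acts mainly in elongation. In stratified epithelia these factors serve the high protein output of proliferating basal cells.

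Several initiation factor mRNAs are known to begin with a run of pyrimidines, the 5′ terminal oligopyrimidine motif through which mTORC1 regulates translation. The RefSeq promoter table (GRCm38.p6) held 38 of the 50 genes, with 50 start sites. A run of at least 8 C or T on the sense strand, touching the 5 bases on either side of the start, was found in 6 of the 38 genes (15.8%), against 11.0% of all genes in that table and 11.9% of those with a mean of at least 10 CPM in these libraries. The 6 genes were Eif2b5, Eif2c5, Eif3f, Eif3l, Eif4e and Eif4enif1. Eif2c5 is annotated as a noncoding RNA. The runs of Eif4e and Eif4enif1 end before the annotated start. The share thus counts runs near a start, and not mRNAs that begin with one. The runs of 3 genes are shown because they are the ones in eIF3 and eIF2B, with 30 bases before and 30 after the annotated start and the run in capitals.
Eif3f, plus strand, chr7:108934385-108934444: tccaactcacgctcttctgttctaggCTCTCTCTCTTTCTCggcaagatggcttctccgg
Eif3l, plus strand, chr15:79075193-79075252: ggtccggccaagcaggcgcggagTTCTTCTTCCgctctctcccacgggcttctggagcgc
Eif2b5, plus strand, chr16:20498787-20498846: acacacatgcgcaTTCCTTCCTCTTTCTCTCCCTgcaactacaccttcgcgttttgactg
The run in Eif3f is 15 bases long and crosses the start. Of the 5 tested genes with a run, Eif3f had the lowest log2 fold change of the family (-0.86). Eif4e was at 0.24, Eif4enif1 at 0.35, Eif3l at 0.39 and Eif2b5 at 0.41. The median was 0.35 over these 5 genes and 0.12 over the 32 tested genes without a run (range -0.42 to 0.87).

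The motif CACGTG, an E-box that reads the same on both strands and is bound by Myc with Max among others, lay in the window from 250 bases before to 50 after the start in 10 of the 38 genes (26.3%). The share was 8.09% of all genes and 12.5% of genes of at least 10 CPM. The genes were Eif1b, Eif3a, Eif3f, Eif3k, Eif4a1, Eif4e, Eif4g1, Eif4h, Eif5a and Eif5a2. In Eif1b, Eif3f, Eif3k and Eif5a the motif lies within 80 bases before a start, and their windows are not shown. Windows of 80 bases before to 30 after the start are shown for 3 other genes described below, with the motif in capitals.
Eif4g1, plus strand, chr16:20672647-20672756: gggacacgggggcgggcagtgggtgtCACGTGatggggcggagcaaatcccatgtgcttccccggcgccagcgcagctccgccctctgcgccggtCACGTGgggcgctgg
Eif4e, plus strand, chr3:138527188-138527297: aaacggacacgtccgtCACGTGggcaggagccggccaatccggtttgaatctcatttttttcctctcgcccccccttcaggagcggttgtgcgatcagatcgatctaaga
Eif3a, minus strand, chr19:60790664-60790773: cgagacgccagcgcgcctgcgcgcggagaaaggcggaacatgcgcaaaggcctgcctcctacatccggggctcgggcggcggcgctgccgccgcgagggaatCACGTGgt
Eif4g1 carries the motif at both ends of the window. The median log2 fold change was 0.26 over the 10 genes with an E-box (range -0.86 to 0.57). It was 0.12 over the 27 tested genes without one (range -0.42 to 0.87), so the ranges overlapped widely. The median over genes of at least 10 CPM was 0.40. GC content of the windows had a median of 62.7% in the family and 61.3% in genes of at least 10 CPM.

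Transcript levels across the family spanned a wide range once corrected for gene length. Levels between genes are given as TMM-scaled CPM per kilobase, with the gene length implied by the deposited FPKM. Eif5a, which carries the amino acid hypusine, was the most abundant at 320 and 262 CPM per kilobase in the controls and 221 and 326 in libraries 3 and 4. Eif1, which guards start codon selection, followed at 165, 120, 123 and 174, and Eif4a1, the main eIF4A helicase, at 143, 142, 103 and 182. The levels of these 3 genes in libraries 3 and 4 overlapped or enclosed those of the controls, and Eif1 and Eif4a1 also overlapped each other.

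The least abundant genes tested were Eif4ebp3, at 0.658 to 1.67 CPM per kilobase, and Eif5a2, at 0.738 to 2.08. Eif4e1b, a cap-binding homolog known from oocytes, had 7, 11, 1 and 4 counts in libraries 1 to 4, and Eif2c5 had 0, 3, 3 and 1. These 2 genes did not pass the filter on low counts, and the other 48 were tested.

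**Figure D1:**
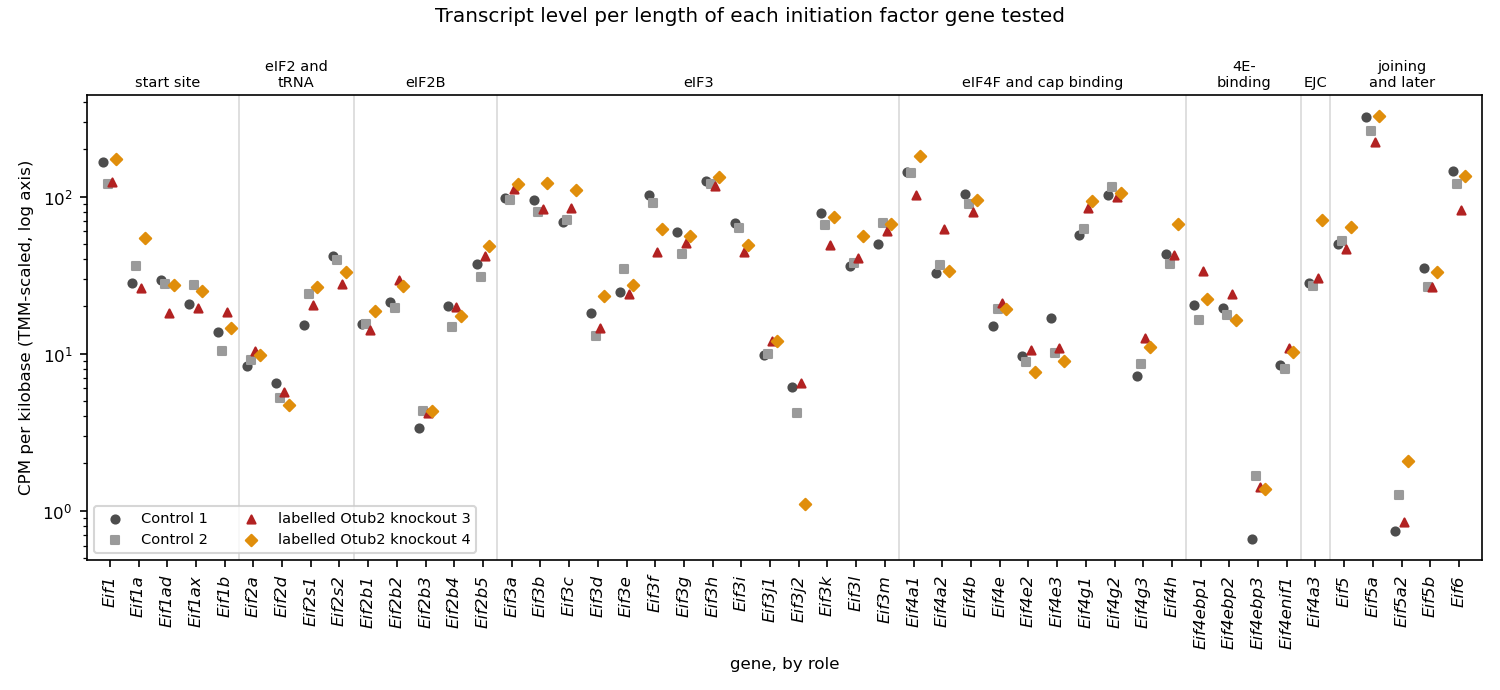
Level of each of the 48 tested genes in each of the 4 libraries, as TMM-scaled CPM per kilobase on a log axis, ordered by role (EJC, exon junction complex). Points of the 4 libraries lie close together for most genes, Eif5a is the highest, and Eif3j2 in library 4 stands below its other points.

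No initiation factor gene passed the test between the groups. edgeR's quasi-likelihood test with Benjamini-Hochberg adjustment called 0 of 48 in either direction, and over all 21916 genes tested it also called 0 higher (0%) and 0 lower (0%). DESeq2 likewise called 0 of the family, with 4.89% of all genes called higher and 1.62% lower. Without adjustment, at p under 0.05, edgeR had 0 of the 48 higher and 1 lower, Eif3f, whereas 9.42% of all genes tested were higher and 15.2% lower.

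Fold changes across the family covered a narrower range than those of all expressed genes. All 48 fitted fold changes were within 2-fold, and 42 (87.5%) lay within 0.5 of 0 on the log2 scale. Among the 46 members of at least 10 CPM the share was 89.1%, against 49.5% of the 9914 genes at that level. Such a share depends on the centre of a distribution as well as on its width. The middle 50% of the family ran from -0.09 to 0.36 around a median of 0.12. For genes of at least 10 CPM it ran from 0.03 to 0.81 around 0.40. The median of the family was thus 0.28 below theirs on the log2 scale, and 0.25 below with voom. It was 0.27 to 0.28 below under the other scalings, filters and tests. A scaling shifts all genes by nearly the same amount, so equal distances across scalings hold by construction. With a library left out, the family median was between 0.19 and 0.33 below.

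**Figure D2:**
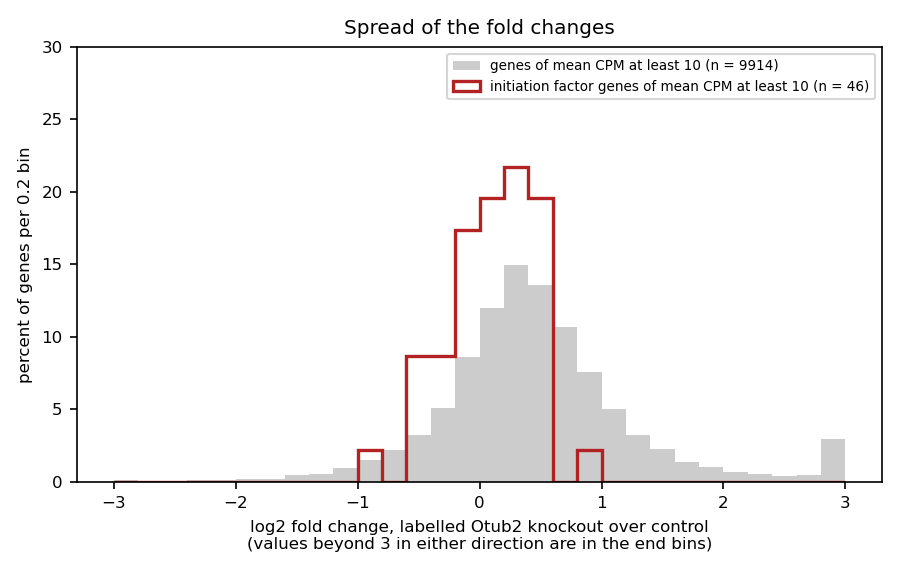
Distribution of fitted log2 fold changes (labelled Otub2 knockout over control), as percent of genes per bin, for the 46 initiation factor genes (red line) and all 9914 genes (grey) with a mean of at least 10 CPM. The red line is narrower, and its centre lies to the left of the grey one.

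Both libraries labelled Otub2 knockout lay above both controls for 14 genes and below both for 4. Those were 30.4% and 8.7% of the 46 members with at least 10 CPM, against 44.5% and 11.3% of all genes at that level. These counts rest on the scaling: with upper-quartile scaling they were 0 above and 29 below, because that scaling lowers the log2 fold change of all genes by a median of 0.47. The sign of the fold change was the same under all 15 settings, libraries left out included, for 11 genes. Eif4a3, Eif4ebp1, Eif4g1, Eif4g3, Eif3c and Eif2b2 were higher, and Eif3f, Eif3i, Eif2s2, Eif4e3 and Eif1ad lower. The settings reuse the same libraries, and no share over all genes was computed. Some signs were kept only narrowly. The log2 fold change nearest 0 was 0.004 for Eif2b2, 0.009 for Eif3c, -0.024 for Eif4e3 and -0.036 for Eif1ad. None of the differences of the 11 genes passed the threshold in all 4 libraries together.

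**Figure D3:**
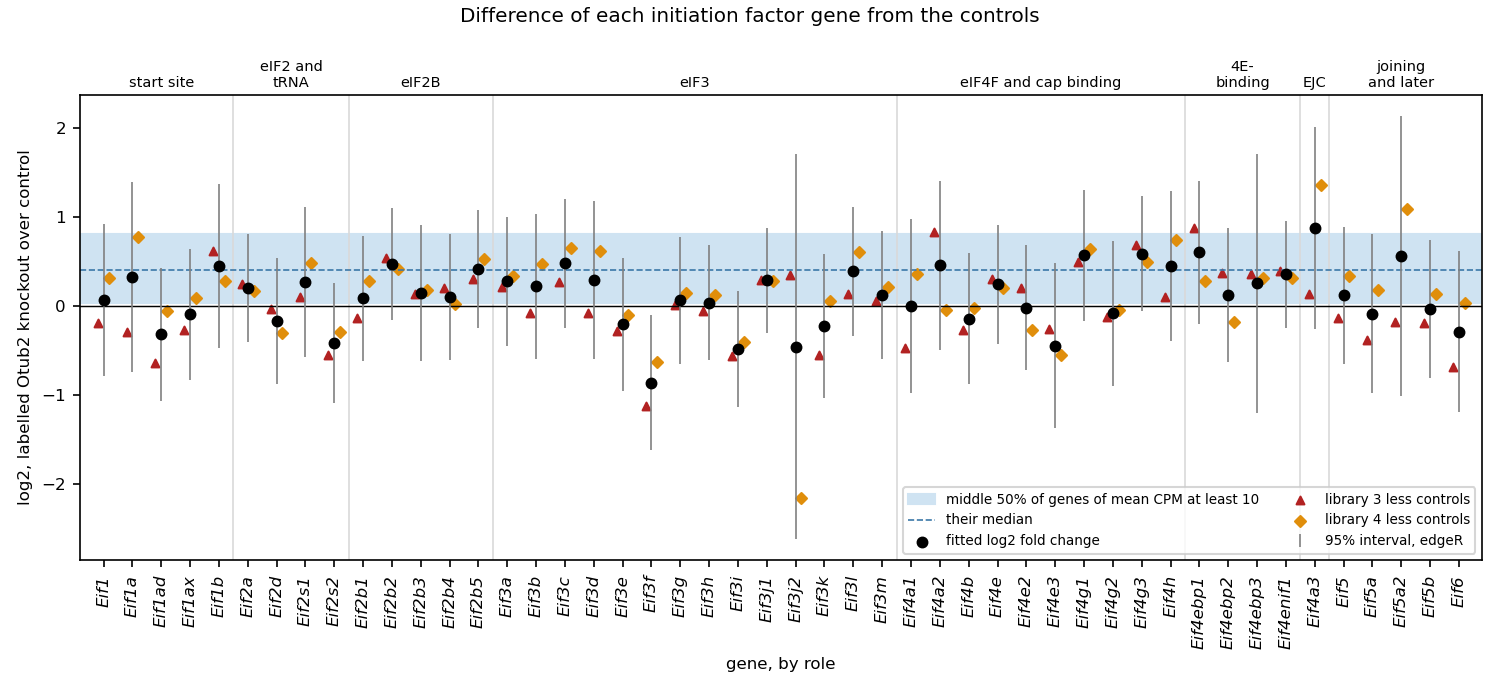
Fitted log2 fold change of each tested gene (black) with its 95% interval from edgeR, and the difference of library 3 (red) and library 4 (orange) from the control mean. The blue band is the middle 50% of genes of at least 10 CPM. Eif3f is the gene whose interval lies wholly below 0.

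In eIF3, the large scaffold that recruits the small ribosomal subunit, Eif3f and Eif3i had the lowest log2 fold changes, followed by Eif3j2 at -0.46. Eif3f, chr7:108934417-108942951 on the plus strand of GRCm38, codes for an MPN-domain subunit and was at 298 and 265 CPM in controls 1 and 2 and at 128 and 181 CPM in libraries 3 and 4. Both values are below both controls. The log2 fold change was -0.86 ± 0.30 (SE), with a 95% interval from -1.63 to -0.10, an unadjusted p of 0.0331 and an adjusted p of 0.183 (edgeR). It ranged from -1.33 to -0.60 over the settings that use all libraries.

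Eif3i, a WD-repeat subunit on chr4:129591960-129600648, was at 250 and 234 CPM in controls 1 and 2 and at 164 and 183 CPM in libraries 3 and 4. The groups did not overlap, and the log2 fold change was -0.48 with a 95% interval from -1.13 to 0.17. Eif3c, part of the core that contacts eIF1 and eIF5, was on the other side: 244 and 248 CPM in controls 1 and 2, 296 and 387 CPM in libraries 3 and 4, log2 fold change 0.47 (-0.25 to 1.20). Eif3a, the largest subunit, was at 504 and 493 CPM and then at 578 and 626 CPM, and Eif3l at 131 and 138 CPM and then at 147 and 205 CPM. The loosely bound Eif3j1 was at 57.0, 58.4, 70.7 and 69.7 CPM in libraries 1 to 4. Of the 14 eIF3 genes, these 4 (28.6%) had both libraries 3 and 4 above both controls under TMM. Eif3f and Eif3i (14.3%) had both below. The shares among genes of at least 10 CPM were 44.5% and 11.3%. Over the settings that use all libraries, the log2 fold change went down to -0.195 for Eif3a, -0.078 for Eif3l and -0.184 for Eif3j1.

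The remaining subunits overlapped between groups. Eif3h was nearly level at 202, 193, 189 and 215 CPM in libraries 1 to 4, and Eif3b, Eif3d, Eif3e, Eif3g, Eif3k and Eif3m had log2 fold changes from -0.23 to 0.29. Eif3j2, a single-exon copy of Eif3j1, was at 14.7, 10.0, 15.4 and 2.61 CPM, so only library 4 stood apart.

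Subunits of eIF3 were also compared with each other within a library, where no scaling factor enters. This comparison, and the choice to leave out the low-count copy Eif3j2, were made after the values were seen. The groups did not overlap for 7 of 13 subunits, and some subunits also differed between the controls, as Eif3m did at 0.955 and 1.39 times the others. In CPM, 44.5% of genes of at least 10 CPM were above both controls and 11.3% below. No share over all genes was computed for the measure within a library. Each subunit is divided by the mean of the others, so a lower Eif3f raises the rest. Eif3f was 2.09 and 1.93 times the geometric mean of the other 12 subunits per length in the controls, and 0.954 and 1.09 times in libraries 3 and 4. Eif3i was 1.33 and 1.29 times that mean in the controls and 0.948 and 0.842 times in libraries 3 and 4. Eif3c stood at 1.36 and 1.46 times in the controls and at 1.91 and 2.01 times in libraries 3 and 4. Eif3f thus stood well above the average subunit in the controls and near it in libraries 3 and 4.

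In eIF4F, the scaffold genes Eif4g1 and Eif4g3 were higher in libraries 3 and 4, while their relative Eif4g2 overlapped between the groups. Eif4g1, chr16:20668313-20692884, was at 418 and 457 CPM in controls 1 and 2 and at 614 and 682 CPM in libraries 3 and 4 (log2 fold change 0.57, 95% interval -0.17 to 1.30, adjusted p 0.27 by edgeR). Eif4g3 was at 80.2 and 94.5 CPM and then at 140 and 122 CPM, a log2 fold change of 0.58 (-0.07 to 1.23). Both genes had every library labelled Otub2 knockout above both controls under TMM, as had 44.5% of genes of at least 10 CPM. With upper-quartile scaling no gene of the family did. Over the settings that use all libraries, the log2 fold change ran from 0.10 to 0.82 for Eif4g1 and from 0.12 to 0.84 for Eif4g3. The median over genes of at least 10 CPM was 0.40 under TMM. Eif4g2, also called DAP5, lacks the eIF4E-binding site and serves cap-independent initiation. It was the most abundant by CPM, at 1038 and 1169 CPM in controls 1 and 2 and 1010 and 1069 CPM in libraries 3 and 4.

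The per-length ratio of Eif4g2 to Eif4g1 was 1.78 and 1.84 in the controls and 1.18 and 1.13 in libraries 3 and 4. The difference of -0.65 on the log2 scale was larger than the spread within either group (0.04 and 0.07). With 2 libraries a group the exact two-sided permutation test cannot go below 0.333, which is the p it gave, and adjusted over the 14 ratios tested it was 0.934.

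The eIF4A helicases, which unwind mRNA near the cap, split between libraries 3 and 4. Eif4a2 was at 175 and 197 CPM in controls 1 and 2, 330 CPM in library 3 and 180 CPM in library 4. Eif4a1 was at 621 and 616 CPM in controls 1 and 2, 445 CPM in library 3 and 791 CPM in library 4. The ratio Eif4a2 to Eif4a1 per length was 0.228 and 0.26 in the controls, 0.603 in library 3 and 0.184 in library 4, so library 3 alone was high. Eif4a-ps4, a pseudogene copy, held 1080, 1209, 1122 and 2519 counts in libraries 1 to 4, and reads shared with such copies make the eIF4A values uncertain. Eif4a2 also overlaps Rfc4 on the opposite strand. In all, 11 members overlap a protein-coding gene: Eif1ad, Eif2a, Eif2b4, Eif2d, Eif2s2, Eif3j1, Eif3m, Eif4a2, Eif4e3, Eif4enif1 and Eif5b. As the counting's use of strand is not given in the sources used here, their values are uncertain, most of all where the partner had more counts. Serp1, opposite Eif2a, had 2345, 2311, 10185 and 3663 counts in libraries 1 to 4, against 731, 763, 908 and 1236 for Eif2a. Banf1 opposite Eif1ad and Drg1 opposite Eif4enif1 had counts of the same order as those genes.

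Among cap-binding proteins, Eif4e was at 89.9 and 115 CPM in controls 1 and 2 and 125 and 116 CPM in libraries 3 and 4. Eif4e2, which takes part in translational repression, was at 72.2, 66.1, 79.0 and 57.1 CPM in libraries 1 to 4. Eif4e3 was at 42.7, 25.6, 27.5 and 22.5 CPM. Only control 1 was high for Eif4e3, and the ratio Eif4e3 to Eif4e was 1.13 and 0.531 in the controls and 0.524 and 0.462 in libraries 3 and 4. Of the helicase cofactors, Eif4b was at 466, 403, 357 and 427 CPM, and Eif4h at 238, 206, 236 and 370 CPM with library 4 above the others.

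The eIF4E-binding proteins, which compete with eIF4G for eIF4E, had a median log2 fold change of 0.30 over 4 genes, below the 0.40 of genes of at least 10 CPM. The 4 include Eif4ebp3, which had 7, 17, 15 and 21 counts in libraries 1 to 4. Eif4ebp1, chr8:27260329-27276674, was at 44.7 and 36.0 CPM in controls 1 and 2 and at 73.5 and 48.8 CPM in libraries 3 and 4 (log2 fold change 0.60, 95% interval -0.21 to 1.41, adjusted p 0.282 by edgeR). Eif4ebp2 was at 113, 102, 139 and 94.3 CPM. The ratio of Eif4ebp1 to Eif4ebp2 per length was 1.04 and 0.928 in the controls and 1.39 and 1.36 in libraries 3 and 4, without overlap (exact permutation p 0.333). Eif4enif1, the 4E-transporter that carries eIF4E into the nucleus and to P-bodies, was at 54.2, 51.2, 69.0 and 65.5 CPM.

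**Figure D4:**
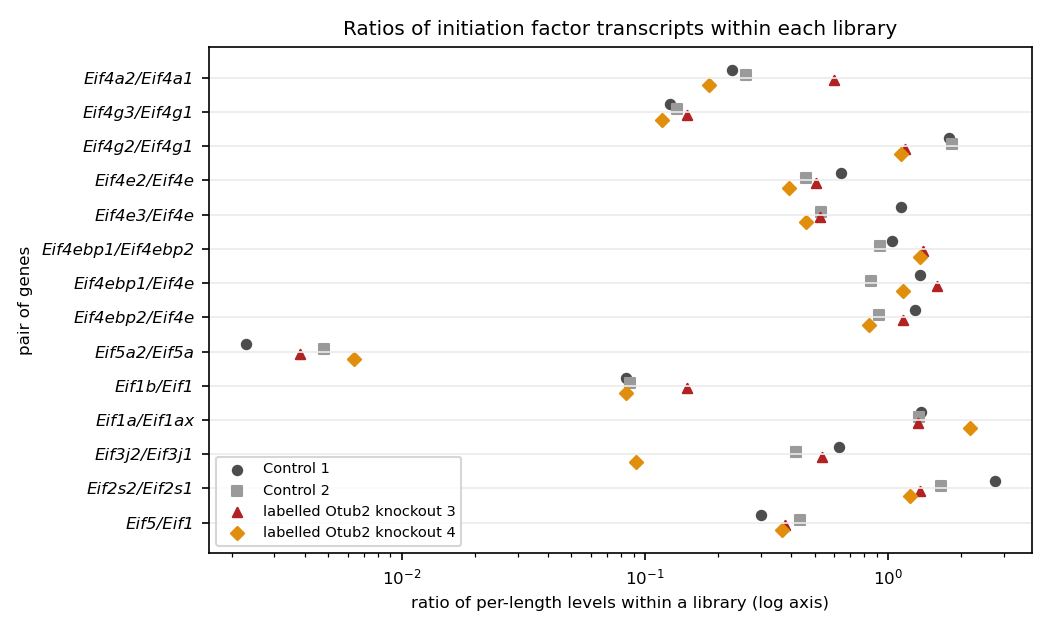
Per-length ratios of 14 pairs of initiation factor genes within each library, on a log axis. The groups do not overlap for Eif4g2/Eif4g1, Eif4e3/Eif4e, Eif4ebp1/Eif4ebp2 and Eif2s2/Eif2s1. With 2 libraries a group, a ratio unrelated to the labels shows no overlap with a probability of 0.333. Single libraries stand apart for Eif4a2/Eif4a1 (library 3) and Eif3j2/Eif3j1 (library 4).

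Of eIF2, the tRNA carrier, the beta subunit gene Eif2s2 was at 283 and 267 CPM in controls 1 and 2 and at 188 and 224 CPM in libraries 3 and 4. Those values were below both controls, with a log2 fold change of -0.42 (95% interval -1.10 to 0.26). The alpha subunit gene Eif2s1, whose product is the target of the stress kinases, was at 75.4 and 118 CPM in controls 1 and 2 and 101 and 132 CPM in libraries 3 and 4. The per-length ratio of Eif2s2 to Eif2s1 was 2.75 and 1.65 in the controls and 1.36 and 1.24 in libraries 3 and 4. The groups did not overlap (exact permutation p 0.333), but there was a wide gap between the controls. Eif2a and Eif2d, which can deliver initiator tRNA without eIF2, were at 51.2, 55.9, 63.4 and 59.8 CPM and at 48.1, 38.5, 42.0 and 34.6 CPM.

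The gamma subunit genes, outside the family as defined, had larger fold changes than the alpha and beta subunit genes. Eif2s3x was at 46.0 and 59.2 CPM in controls 1 and 2 and 92.2 and 80.3 CPM in libraries 3 and 4, and the Y-linked Eif2s3y at 2.52 and 2.71 CPM and then 15.5 and 33.5 CPM. Other sex-linked transcripts moved with them: Xist was at 0.56, 0.439, 310 and 159 CPM in libraries 1 to 4 and Ddx3y at 4.48, 4.98, 39.0 and 29.3 CPM. Both an X-inactivation transcript and a Y transcript were thus higher in libraries 3 and 4, and their part in the values of Eif2s3x was not tested.

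The 5 eIF2B genes, which encode the exchange factor that eIF2 phosphorylation inhibits, had log2 fold changes from 0.08 to 0.47. Eif2b2 was at 40.3 and 36.5 CPM in controls 1 and 2 and at 55.6 and 51.1 CPM in libraries 3 and 4. Eif2b5, the catalytic subunit, was at 37.3 and 30.8 CPM per kilobase and then at 41.8 and 48.8. For both genes libraries 3 and 4 were above both controls under TMM, as they were for 44.5% of genes of at least 10 CPM. Eif2b1, Eif2b3 and Eif2b4 overlapped between groups.

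Among the scanning factors, Eif1 and Eif1ax overlapped between groups at 346, 251, 258 and 365 CPM and at 109, 144, 103 and 132 CPM in libraries 1 to 4. Eif1b, a close homolog of Eif1, was at 15.5 and 11.7 CPM in controls 1 and 2 and at 20.8 and 16.4 CPM in libraries 3 and 4. Eif1ad, an eIF1A-domain protein, was at 72.8 and 68.1 CPM in controls 1 and 2, 45.0 CPM in library 3 and 67.5 CPM in library 4. Library 4 thus lay just under the lower control. Eif1a was at 81.5, 105, 75.3 and 158 CPM, with library 4 alone high.

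At the later steps, no gene had libraries 3 and 4 on the same side of both controls. Eif5, the GTPase activator of eIF2, was at 339, 355, 316 and 437 CPM in libraries 1 to 4, and Eif5b, the joining GTPase, at 343, 258, 260 and 325 CPM. Eif6 was at 394, 326, 222 and 367 CPM, with library 3 low, and Eif5a2, a little-expressed homolog of Eif5a, at 3.71, 6.30, 4.26 and 10.4 CPM, with library 4 high.

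Eif4a3, an RNA helicase of the exon junction complex with little part in initiation, had the highest fitted fold change of the family. It was at 59.5 and 57.2 CPM in controls 1 and 2, 64.0 CPM in library 3 and 150 CPM in library 4. The log2 fold change of 0.87 (95% interval -0.26 to 2.01, adjusted p 0.27 by edgeR) rests on library 4, since without it the value was 0.13 and without library 3 it was 1.39.

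Each of libraries 3 and 4 was also set against the controls alone, on the assumption that a lone library varies as the controls do, and both comparisons share those controls. Library 3 had Eif4a2, Eif4ebp1 and Eif4g3 called higher and Eif3f and Eif6 lower (edgeR adjusted p under 0.05), where 22.4% of all genes tested were called higher and 12.7% lower. Library 4 had 8 genes called higher, Eif1a, Eif3c, Eif3d, Eif3l, Eif4a3, Eif4g1, Eif4h and Eif5a2, and Eif3j2 lower, where 18.8% of all genes were called higher and 22% lower. Whether a gene's difference was larger in one library than in the other was not tested. The log2 fold changes of Eif3f were -1.14 and -0.61 in libraries 3 and 4, with adjusted p of 0.000344 and 0.0565 by edgeR. Those of Eif4g1 were 0.48 and 0.67, with adjusted p of 0.141 and 0.0268. The log2 difference between libraries 3 and 4 had a median size of 0.35 over the family and 0.50 over genes of at least 10 CPM, and between the controls it was 0.24 and 0.22.

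**Figure D5:**
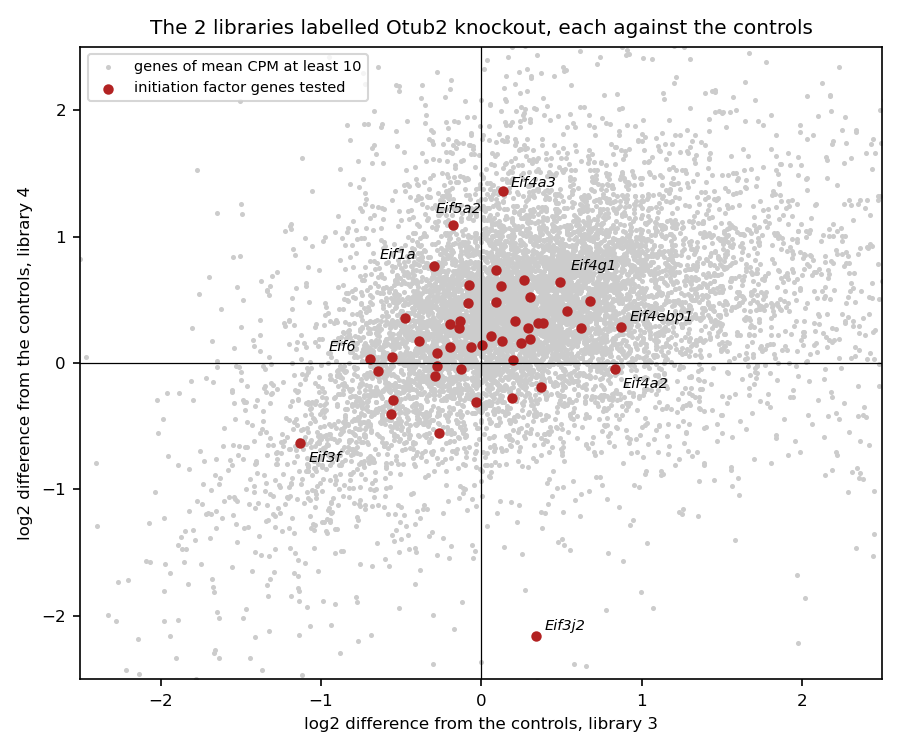
Log2 difference from the control mean in library 3 (horizontal) and library 4 (vertical) for the 48 tested initiation factor genes (red) and genes of at least 10 CPM (grey, those beyond 2.5 not drawn). The controls are shared by both axes. Most red points lie near the origin, Eif3f is low in both libraries, and Eif4a3, Eif4a2 and Eif3j2 depart in 1 library.

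Genes that act on the initiation factors were read from the same test, and none of their lists had a gene called. Their counts stand beside 44.5% above and 11.3% below both controls among all genes of at least 10 CPM, with a median log2 fold change of 0.40. Over all genes tested the shares were 26.9% and 33.1%, and 10.4% and 48.5% with upper-quartile scaling. Of 6 eIF2 alpha kinase and phosphatase genes, 4 were above both controls and 0 below, and with upper-quartile scaling 2 and 2. Eif2ak3 (PERK), the kinase of endoplasmic reticulum stress, was at 13.9 and 15.1 CPM in controls 1 and 2 and at 92.9 and 37.0 CPM in libraries 3 and 4, a log2 fold change of 2.16 ± 0.50 (SE). Ppp1r15a (GADD34), which directs dephosphorylation of eIF2 alpha, was at 17.4, 16.5, 26.1 and 51.5 CPM. Of 12 targets of the integrated stress response, 6 were above and 4 below both controls (5 and 5 with upper-quartile scaling). Atf3 was at 5.60, 4.39, 14.5 and 18.4 CPM and Chac1 at 3.15, 2.05, 7.19 and 10.8 CPM, whereas Cebpb was at 80.7, 47.9, 15.1 and 30.6 CPM and Trib3 at 36.0, 23.3, 11.5 and 14.1 CPM. The signs of these 6 fold changes were the same under every setting that used all libraries.

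Of 10 mTORC1 and S6 kinase genes, 6 were above both controls and 1 below, beside 44.5% and 11.3% of genes of at least 10 CPM. The median log2 fold change was 0.55 over the list and 0.40 over genes of at least 10 CPM. Mtor, the kinase that phosphorylates the eIF4E-binding proteins, was at 36.2 and 42.8 CPM in controls 1 and 2 and 72.5 and 66.4 CPM in libraries 3 and 4. Rps6kb1 (S6 kinase 1) was at 50.7, 60.4, 87.2 and 110 CPM, and its homolog Rps6kb2 at 39.9, 43.5, 30.6 and 36.6 CPM. With upper-quartile scaling the list had 3 above and 1 below and a median of 0.08, and with library size only 0 above and 2 below.

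Of 18 partners and regulators at the cap and poly(A) tail, 9 were above and 1 below both controls, and with upper-quartile scaling 2 and 7. The shares among genes of at least 10 CPM were 44.5% above and 11.3% below under TMM. Gigyf1, which represses cap-dependent translation with eIF4E2, was at 39.4 and 41.9 CPM in controls 1 and 2 and 81.1 and 78.2 CPM in libraries 3 and 4. Dhx29, a helicase that helps scanning through structured leaders, was at 19.0, 24.5, 38.0 and 42.0 CPM. Pdcd4, an inhibitor of eIF4A, was at 67.0, 87.2, 392 and 40.5 CPM, with library 3 alone high.

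Of 11 elongation genes tested, 4 were above and 3 below both controls, and with upper-quartile scaling 2 and 8. For this and the next lists, the shares among genes of at least 10 CPM were again 44.5% above and 11.3% below under TMM. Eef1b2, an exchange factor for the elongation factor eEF1A, was at 1090 and 848 CPM in controls 1 and 2 and 424 and 512 CPM in libraries 3 and 4, a log2 fold change of -1.05 ± 0.33 (SE). Eef1a2, the muscle and neuron form of eEF1A, was not tested and was at 0.28, 0.293, 233 and 0.484 CPM, so it was high in library 3 alone, where the cardiomyocyte markers were also high. Of 6 termination and recycling genes 3 were above and 0 below, and both mitochondrial initiation genes, Mtif2 and Mtif3, were above, though with upper-quartile scaling none of these 5 were. Of 3 noncanonical initiation genes, Mcts1 was above and Mcts2 below, and with upper-quartile scaling 0 were above and 2 below.

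Lists of growth-related genes stood higher in library 4 than in library 3. The 18 ribosome biogenesis and Myc genes had a median log2 difference from the controls of -0.35 in library 3 and 0.52 in library 4, and the 13 cell division genes -0.04 and 1.74. For the initiation factor family the medians were 0.03 and 0.20, and for genes of at least 10 CPM 0.27 and 0.38. Most initiation factor genes were also higher in library 4 than in library 3, by most in Eif5a2, Eif4a3, Eif1a, Eif4a1 and Eif6. Whether the growth-related lists bear on these genes was not tested.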

How the data were processed

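RNA was sequenced in 4 libraries, 2 control and 2 labelled Otub2 knockout. The authors deposited a raw read count per gene and library, per the file headers, and an FPKM value for each count. FPKM was used here only for the gene length it implies. HISAT2, DESeq and GRCh38 are named in the submitters' processing notes; GRCh38 is the human genome, yet the gene IDs belong to mouse. Coordinates come from GENCODE release M21 (GRCm38), which held 54409 of the 54446 IDs. Not given in the sources used here are the aligner's settings, the counting tool and its use of strand.

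The 14785 features without a gene identity, 0.914% to 2.84% of the counts of a library, were left out. Counts were tested with edgeR 4.0.16 (R 4.3.3): TMM factors, filterByExpr, the quasi-likelihood F-test and Benjamini-Hochberg adjustment at 0.05 over all genes tested. Standard errors come from the F statistic and intervals are 95%. CPM uses TMM-scaled library sizes; differences of single libraries use log2 CPM with a prior count of 2. The scripts were tested on simulated data. Alternatives were DESeq2 1.42.0, voom of limma 3.58.1, other scalings and filters, and leaving out each library. P-values cover only the spread among these 4 libraries, and that spread could be technical.

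Genes were named by a rule: in each role group up to 4 genes with the smallest p, the most abundant gene per length, and the genes of 14 ratios. The other members named here were chosen after their values were seen, as were the genes named from other lists. The members, lists and tests were chosen with earlier results of these data known.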

Additional observations from a re-analysis of the deposited data

How the results depend on the processing

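The calls on all genes and the position of the family relative to 0 depended on the processing. The position of the family relative to other expressed genes did so much less. For a change of scaling this holds by construction, because all genes shift by nearly the same amount. DESeq2 called 780 genes higher and 258 lower, library-size scaling 37 and 1433, and no filter on low counts 6 and 3; none of these called an initiation factor gene. Genes above and below both controls numbered 0 and 29 with upper-quartile scaling, 0 and 11 with library size only, 1 and 9 with median-centred libraries, 3 and 15 with the total without the most abundant genes, 2 and 19 with a filter on mean CPM, and 26 and 2 with features without gene identity kept. The median log2 fold change of the family was -0.345, -0.297, -0.169, -0.163, -0.205 and 0.377 in the same order, and 0.246 with no filter. The same choices shifted the log2 fold change of all genes by -0.466, -0.458, -0.318, -0.281, -0.325 and 0.255, and no filter by 0.13. With the shift left in, the sign changed for 18, 15, 11, 10, 11 and 6 genes in the same order, and for 5 with no filter. These are counts among the 38 genes named by the rule. Taking a common shift off favours equal signs by construction. Less that shift, computed for the 38 genes named by the rule, Eif4a1 was the 1 that changed sign in fits with all libraries, from -0.002 to 0.010 (DESeq2 and its size factors), 0.001 (upper quartile), 0.115 (library size), 0.086 (median-centred), 0.008 (no filter) and 0.006 (features kept).

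Leaving out a library gave 0 to 5243 genes called higher and 0 to 5097 lower, 0 to 8 and 0 to 2 in the family, 18 to 28 above and 8 to 18 below the controls, a family median of -0.016 to 0.21 and a distance to other expressed genes of -0.325 to -0.187; fewer libraries make non-overlap easier by construction. Among the same 38 genes, the sign changed on leaving out a library for Eif1 (-0.215 to 0.323), Eif1a (-0.311 to 0.785), Eif1ax (-0.294 to 0.147), Eif2b3 (-0.021 to 0.368), Eif2b4 (-0.077 to 0.339), Eif2d (-0.302 to 0.003), Eif2s1 (-0.014 to 0.66), Eif3h (-0.066 to 0.15), Eif3j2 (-2.213 to 0.315), Eif4a1 (-0.481 to 0.381), Eif4a2 (-0.023 to 0.825), Eif4e2 (-0.248 to 0.189), Eif4ebp2 (-0.162 to 0.367), Eif4ebp3 (-0.261 to 1.091), Eif4g2 (-0.162 to 0.031), Eif5 (-0.14 to 0.358), Eif5a (-0.401 to 0.191), Eif5a2 (-0.235 to 1.09) and Eif6 (-0.704 to 0.053). Otherwise the cause was not tested. No paired analysis was possible because the groups share no replicate numbers.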
